A study of Bos taurus with 8 samples.

Results

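Transcripts of 10 genes that mark the primitive streak and the mesoderm that leaves it were followed in bovine embryonic stem cells (bESCs) grown on feeder cells or without them. They are *TBXT*, *MIXL1*, *EOMES*, *GSC*, *MESP1*, *TBX6*, *HAND1*, *FOXF1*, *MSX1* and *MSX2*, taken by symbol from the 32640 genes of the count table, and all 10 had values. The RNA came from 4 XX lines (A, C, D and E) derived from early or full blastocysts. Each line gave 1 library on MEF (a layer of mouse embryonic fibroblasts, passage 15 to 17) and 1 library in feeder-free culture on vitronectin (passage 20 to 22), so there were 4 libraries per condition and 8 in all. Both conditions were kept in 5% O2 and in NBFR medium, which holds FGF2 and the WNT inhibitor IWR-1, and which keeps bESCs in a primed state of pluripotency. The records and the methods differ on Activin A, which the records put in the medium of every library and the methods in that of feeder-free cultures. Passage, matrix, the presence of feeder cells and perhaps Activin A therefore changed together and cannot be told apart. The methods also describe taking reads seen in a pure MEF sample out of the libraries of cells on MEF. That step, where it was made, went with the condition as well and can lower counts on MEF. Its effect on the counts of the 10 genes was not tested. Each line is a biological replicate with no repeat of its own within a condition.

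The primitive streak is the site at which epiblast cells leave the pluripotent layer and become mesoderm and endoderm. NODAL and Activin, acting through SMAD2 and SMAD3, and WNT, acting through beta-catenin, switch on the T-box factors TBXT and EOMES and the homeobox factors MIXL1 and GSC. High NODAL or Activin favours EOMES, GSC and endoderm, while WNT and FGF favour TBXT and TBX6, and BMP favours lateral and extraembryonic mesoderm with HAND1, FOXF1, MSX1 and MSX2. Primed pluripotent cells can hold low amounts of some of these transcripts, and EOMES, HAND1 and MSX2 are also known from trophoblast.

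Total counts were 44268717 to 54296425 on MEF and 49671478 to 102351560 in feeder-free culture, the largest being that of line D. Of the counts from 1 to 20 in the table, 71.9% were even, and a count of 2 was more frequent (7724) than a count of 1 (3166), so a count of 2 may stand for a single fragment. Levels are given as CPM, library-size normalized counts scaled by edgeR's TMM method. *POU5F1*, the core pluripotency factor, was abundant in both conditions, with means of 2047 ± 245 and 1849 ± 84.4 CPM (SD over 4 lines) on MEF and in feeder-free culture. CPM are not corrected for gene length, so levels are compared between libraries and not between genes. In bulk RNA, more cells of a type and more RNA per cell cannot be told apart.

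Of the 10 genes, 5 passed edgeR's filter on low counts, which asks for about 0.199 CPM in at least 4 libraries: *MIXL1*, *EOMES*, *GSC*, *TBX6* and *MSX2*. *TBXT*, *MESP1*, *HAND1*, *FOXF1* and *MSX1* did not pass it and are described by their counts. In edgeR's quasi-likelihood test on condition alone, 0 of the 5 were called (adjusted p under 0.05, and at least 1.5-fold in either direction), beside 1.73% of all 15744 genes tested. *EOMES* alone had an unadjusted p under 0.05, and DESeq2 also called 0. When the line was added to the fit as a replicate block, *EOMES* was called higher in feeder-free culture, 1 of 5, beside 5.52% of all genes called higher and 4.53% called lower. The median log2 fold change was 0.71 over the 5 tested genes and 0.006 over all genes, given as a description. The plot of CPM by library shows every value behind these statements.

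**Figure D1:**
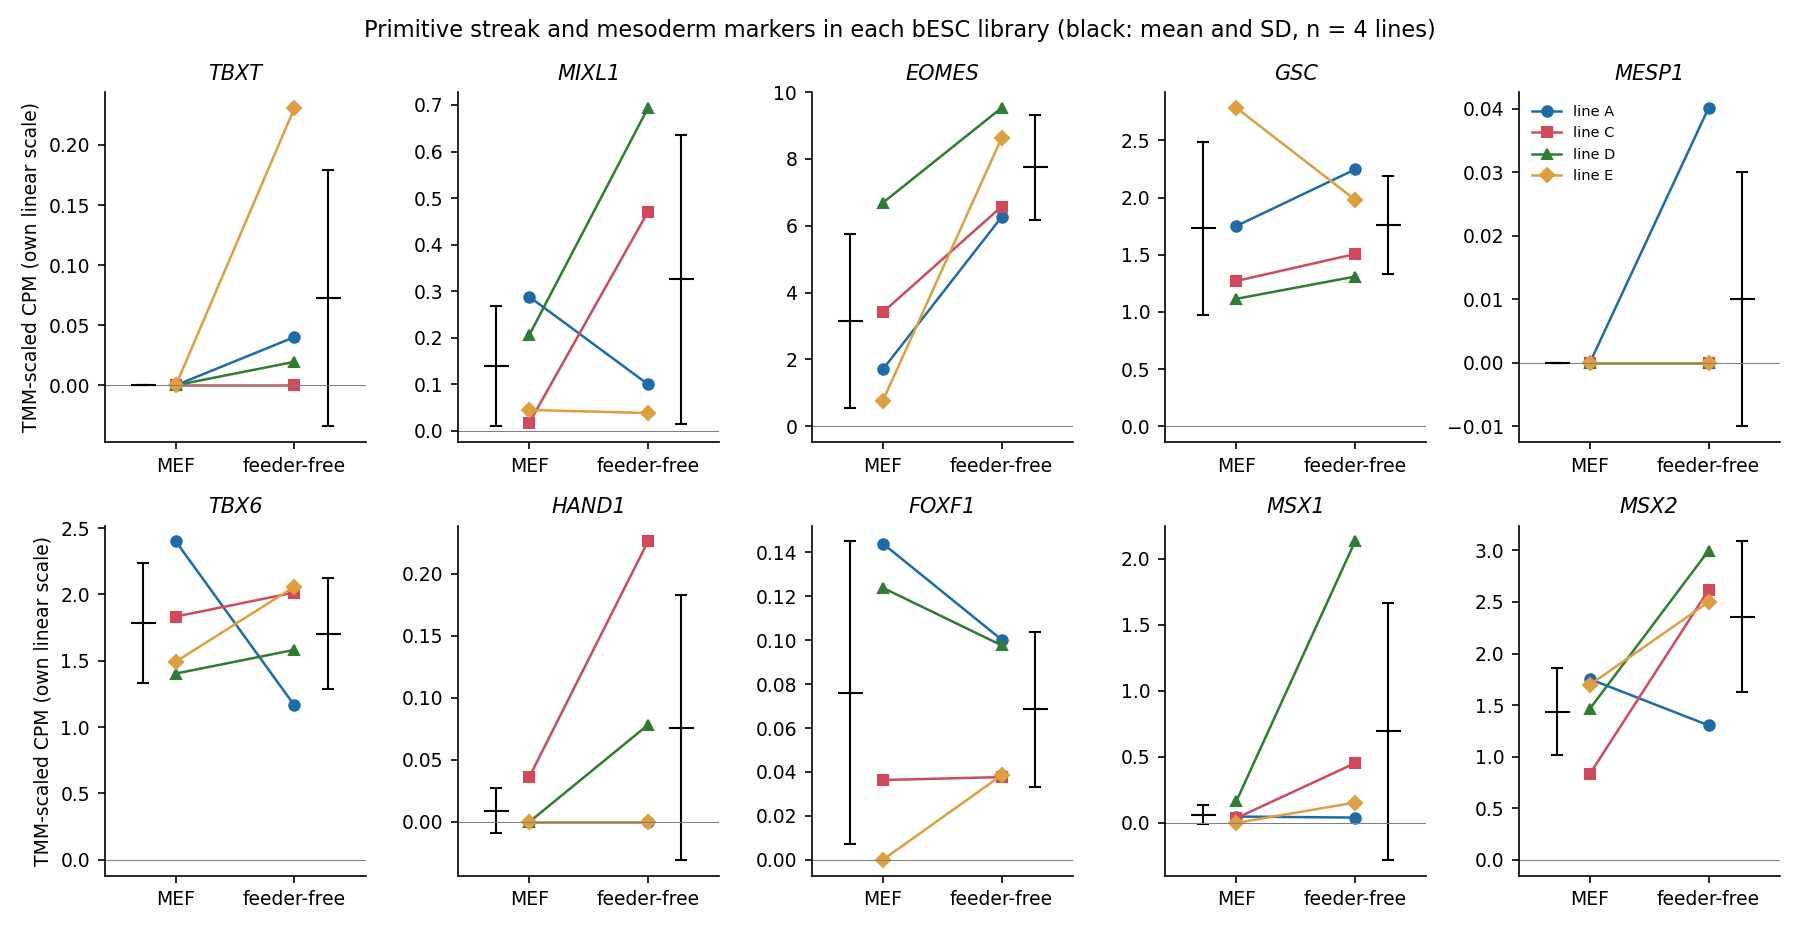
TMM-scaled CPM of each of the 10 genes in the 8 libraries, on MEF and in feeder-free culture, each panel on its own linear axis. Points joined by a line are the 2 libraries of a bESC line, and the black mark is the mean with the SD over 4 lines. *EOMES* is higher in feeder-free culture in all 4 lines, whereas the *MSX1* values are led by line D (2.13 CPM) and the *TBXT* values by line E (0.231 CPM).

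*EOMES*, a T-box factor that opens the mesoderm and endoderm programme downstream of NODAL and Activin, was the only one of the streak genes called, and only in the paired fit. It lies on bovine chromosome 22 (build ARS-UCD2.0), from 2109643 to 2116130. On MEF it had 1.70, 3.41, 6.69 and 0.770 CPM in lines A, C, D and E, from 71, 188, 324 and 34 counts. In feeder-free culture it had 6.26, 6.57, 9.52 and 8.62 CPM, from 312, 349, 975 and 448 counts. The feeder-free level was higher in 4 of 4 lines, and the conditions overlapped through a single library, that of line D on MEF. The lines spanned a wide range on MEF and a narrow one in feeder-free culture, with means of 3.14 ± 2.60 and 7.74 ± 1.58 CPM (SD, n = 4).

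Within lines, the log2 ratio of *EOMES* was 1.85 in A, 0.94 in C, 0.51 in D and 3.43 in E. The line with the least *EOMES* on MEF (E) had the largest ratio, and the line with the most (D) the smallest. The MEF level is the divisor of the ratio, so this order is partly built in and is given as a description. Without pairing, edgeR gave a log2 fold change of 1.30 (SE 0.55, 95% interval 0.06 to 2.54, edgeR adjusted p = 0.211). With the replicate block it gave 1.61 (SE 0.42, 95% interval 0.67 to 2.55, edgeR adjusted p = 0.0307). The paired call was lost without line A (log2 fold change 1.51, edgeR adjusted p = 0.0835) or line C (1.89, adjusted p = 0.0553), and was kept without line D (2.04, adjusted p = 0.0214) or line E (1.10, adjusted p = 0.0492).

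*GSC*, a homeobox repressor of the anterior streak and organizer, lies on chromosome 21 from 59628000 to 59629562. It had 1.75, 1.27, 1.11 and 2.78 CPM on MEF and 2.25, 1.51, 1.31 and 1.98 CPM in feeder-free culture, in lines A, C, D and E. It was slightly higher in 3 lines and lower in line E, and the conditions overlapped throughout. The log2 fold change was 0.02 (95% interval -0.80 to 0.85, edgeR adjusted p = 0.982). In line E, *GSC* and *EOMES* had log2 ratios of opposite sign, -0.48 and 3.43.

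*MIXL1*, a paired-type homeobox factor of the streak, lies on chromosome 16 from 29231911 to 29236523. Its counts were 12, 1, 10 and 2 on MEF and 5, 25, 71 and 2 in feeder-free culture. In CPM this was 0.288, 0.0182, 0.206 and 0.0453 on MEF and 0.100, 0.471, 0.694 and 0.0385 in feeder-free culture. Lines C and D were higher in feeder-free culture and lines A and E were lower. The log2 ratio ran from -1.25 in line A to 3.23 in line C, and the fitted value of 1.26 (SE 0.99, edgeR adjusted p = 0.511) fell to 0.56 without the feeder-free library of line D.

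*TBXT* (Brachyury), the T-box factor that defines the streak and the notochord, lies on chromosome 9 from 101150481 to 101160650. No count was found in any of the 4 libraries on MEF. In feeder-free culture there were 2 counts in line A, 0 in C, 2 in D and 12 in E. With 16 counts against 0, the pooled level in feeder-free culture was 3.92 times a limit of 3 counts over the pooled MEF libraries (0.0158 CPM). It was 1.96 times the limit if 3 fragments of 2 counts are taken. Neither value is a lower bound, since both take the 16 feeder-free counts as exact. Line E held 75.0% of these counts. The difference in mean log2 CPM was 1.15 (exact permutation test over libraries, two-sided, p = 0.143; 4 libraries against 4 cannot go below 0.0286). Without line E in the feeder-free group the difference was 0.57 (same exact test, p = 0.143), and without any 1 MEF library p was 0.257. With line C left out of that group, p was 0.0286 in the same exact test, the smallest that 3 libraries against 4 can give, but line C was the only feeder-free library at 0 counts, so leaving it out fixes the separation from an all-zero group. Limits set from 3 counts cover the counting error of the 0 on MEF only, and neither that of the feeder-free counts nor the spread between lines.

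**Figure D2:**
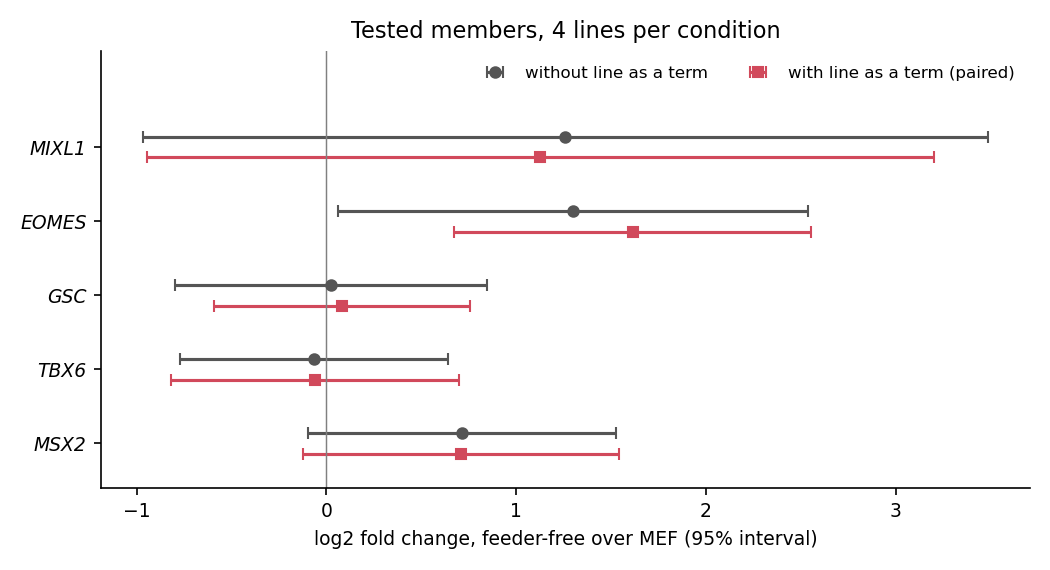
Log2 fold change, feeder-free over MEF, of the 5 genes that passed the filter on low counts, with 95% intervals from edgeR's quasi-likelihood fit, for 4 lines per condition. Circles are the fit on condition alone and squares the fit with line as a replicate block. The *EOMES* interval lies above 0 in both fits (0.06 to 2.54 and 0.67 to 2.55), whereas those of the other 4 genes include 0.

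Among the genes of newly formed and paraxial mesoderm, *TBX6* had 1.16 to 2.40 CPM over the 8 libraries and *MESP1* was at the limit of detection. *TBX6*, a T-box factor that directs cells to paraxial mesoderm, lies on chromosome 25 from 26197654 to 26201360. It had 2.40, 1.83, 1.40 and 1.49 CPM on MEF and 1.16, 2.01, 1.58 and 2.06 CPM in feeder-free culture. Line A was lower in feeder-free culture (log2 ratio -1.02), and the other 3 lines were higher by 0.13 to 0.45. The log2 fold change was -0.06 (95% interval -0.77 to 0.64, edgeR adjusted p = 0.939). *MESP1*, the helix-loop-helix factor of the earliest cardiac mesoderm, on chromosome 21 from 21164554 to 21165982, had 2 counts in the feeder-free library of line A and 0 in the other 7 libraries, which is under the limit of 3 counts.

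Of the lateral mesoderm genes, *MSX1*, *HAND1* and *FOXF1* had few counts, and those of *MSX1* and *HAND1* in feeder-free culture came mainly from lines C and D. *MSX1*, a homeobox repressor that responds to BMP, lies on chromosome 6 from 104281498 to 104285802. Its counts were 2, 2, 8 and 0 on MEF and 2, 24, 218 and 8 in feeder-free culture. In CPM, the feeder-free libraries held 0.0401 in A, 0.452 in C, 2.13 in D and 0.154 in E, against at most 0.165 on MEF. The feeder-free library of line D held 86.5% of the 252 feeder-free counts. The difference in mean log2 CPM was 2.11 (exact permutation test, two-sided, p = 0.171) and 1.24 without that library. The ratio was positive in lines C (2.76), D (3.43) and E (2.40) and -0.14 in line A. With no filter on low counts and the replicate block together, a setting added after the data were seen, *MSX1* and *EOMES* were called, 2 of 10, beside 8.55% of 23262 genes, with edgeR adjusted p of 0.00699 and 0.000279.

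*MSX2*, the close relative of *MSX1*, lies on chromosome 20 from 6444425 to 6449315. It had 1.75, 0.835, 1.47 and 1.70 CPM on MEF and 1.30, 2.62, 3.00 and 2.50 CPM in feeder-free culture. Feeder-free libraries of lines C, D and E lay above every MEF library, and that of line A lay below 3 of them. The log2 fold change was 0.71 (SE 0.36, 95% interval -0.10 to 1.53, edgeR adjusted p = 0.293), and 0.71 with the replicate block (adjusted p = 0.220). For both *MSX* genes line A was the only line whose CPM was not higher in feeder-free culture.

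*HAND1*, a helix-loop-helix factor of extraembryonic and cardiac mesoderm, lies on chromosome 7 from 65748837 to 65752155. It had 2 counts on MEF, in line C, and 20 in feeder-free culture, 12 in C and 8 in D, with 0 in lines A and E in both conditions. The difference in mean log2 CPM was 0.88 (exact permutation test, two-sided, p = 0.429), 0.30 with line C left out of the feeder-free group (p = 0.714) and 1.41 with a prior count of 0.5. *FOXF1*, a forkhead factor of lateral plate and extraembryonic mesoderm, on chromosome 18 from 12338035 to 12342259, had 6, 2, 6 and 0 counts on MEF and 5, 2, 10 and 2 in feeder-free culture. Its difference was 0.10 (exact permutation test, two-sided, p = 0.943), and it was the member whose pooled CPM differed least, 0.0739 on MEF and 0.0738 in feeder-free culture. The *HAND1* counts and the larger *MIXL1* and *MSX1* counts were in the same lines, C and D, and the feeder-free library of line D was the highest of the 8 in CPM of 4 members, *EOMES*, *MIXL1*, *MSX1* and *MSX2*.

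The lines were then compared with each other, with condition in the fit. Each line has 2 libraries here. Of the 5 tested genes, 0 were called between lines at an adjusted p under 0.05 in edgeR's test of line, beside 11.8% of all genes, and 0 had an unadjusted p under 0.05. DESeq2's likelihood ratio test also called 0. The widest difference between lines was 3.24 on the log2 scale for *MIXL1* (adjusted p = 0.374), 1.39 for *EOMES* (adjusted p = 0.261), 0.98 for *GSC* (adjusted p = 0.321), 0.43 for *MSX2* (adjusted p = 0.851) and 0.36 for *TBX6* (adjusted p = 0.937), all from the same edgeR test. With no filter on low counts, *MSX1* (4.10, edgeR adjusted p = 0.00659) and *EOMES* (1.39, adjusted p = 0.0376) were called, 2 of 10, beside 14.5% of 23262 genes. Without the feeder-free library of line E, *EOMES* was called in the fit with the filter (2.82, edgeR adjusted p = 0.0263), 1 of 5, beside 18.4% of all genes in that setting.

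*NODAL*, the ligand upstream of *EOMES* and *GSC*, differed between lines and was not called between conditions. It had 72.2, 32.6, 127 and 19.8 CPM on MEF and 60.6, 32.2, 119 and 26.5 CPM in feeder-free culture, in lines A, C, D and E. The order D, A, C, E held in both conditions. Its log2 fold change was 0.01 with the replicate block (edgeR adjusted p = 0.968), and its difference between lines reached 2.41 (edgeR adjusted p = 0.000238). On MEF, *EOMES* was likewise highest in D and lowest in E. In feeder-free culture *EOMES* in E was exceeded only by that in D, although *NODAL* was again lowest in E.

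**Figure D3:**
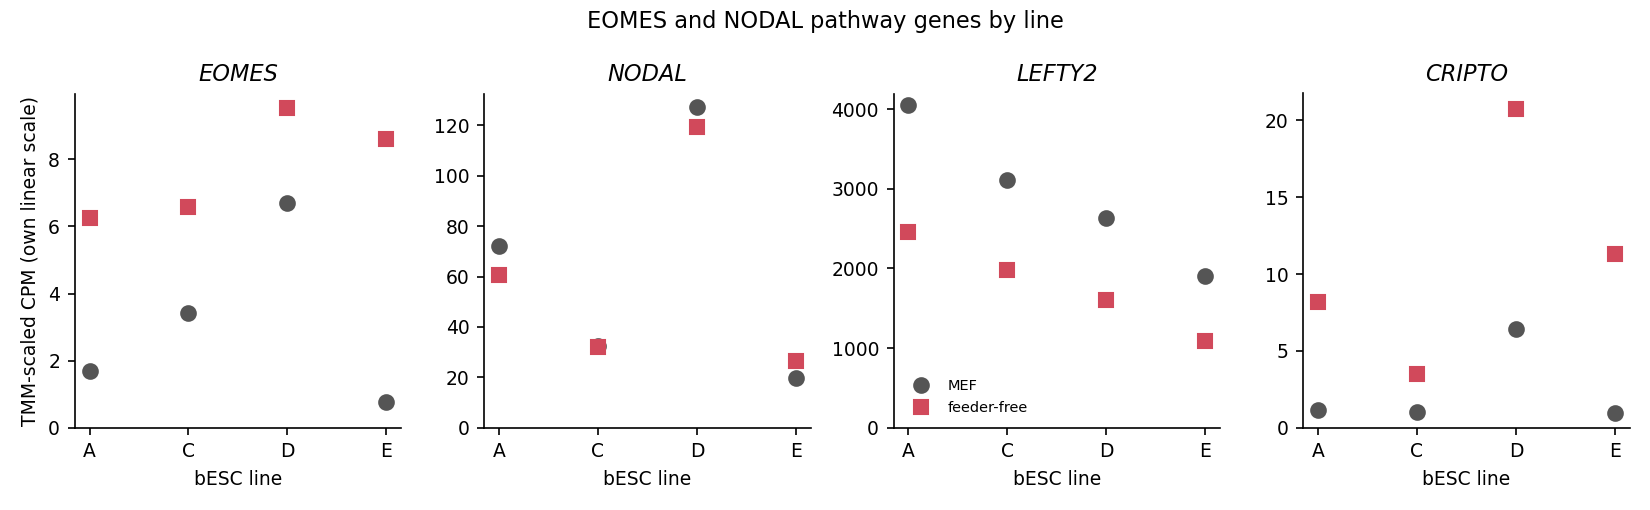
TMM-scaled CPM of *EOMES*, *NODAL*, *LEFTY2* and *CRIPTO* in each bESC line, on MEF (circles) and in feeder-free culture (squares), 1 library per point, each panel on its own linear axis from 0. *NODAL* differs more between lines than within a line (127 and 119 CPM in D), *EOMES* and *CRIPTO* are higher in feeder-free culture in all 4 lines, and *LEFTY2* is lower in all 4.

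Around *NODAL*, the members of the pathway moved in different directions. Of 19 streak-inducing signals, 18 were in the table and 15 were tested. Of these, 0 were called higher and 1 lower without pairing, and 2 higher and 4 lower with the replicate block, with a median log2 fold change of -0.08. *CRIPTO* (TDGF1), the co-receptor of NODAL, had 1.15, 1.02, 6.44 and 0.996 CPM on MEF and 8.20, 3.50, 20.8 and 11.3 CPM in feeder-free culture. Its log2 fold change was 2.42 with the replicate block (edgeR adjusted p = 0.00209) and 2.19 without it (adjusted p = 0.130). *LEFTY2*, a NODAL target that encodes an antagonist, was called lower with the block, with means of 2922 ± 899 CPM on MEF and 1785 ± 581 CPM in feeder-free culture (SD over 4 lines). Its log2 fold change was -0.72 with the block (edgeR adjusted p = 0.00227) and -0.71 without it (adjusted p = 0.193). *SMAD3*, the signal transducer, was called lower with the block (log2 fold change -0.62, edgeR adjusted p = 0.0286) and not without it (adjusted p = 0.146). *NODAL*, *LEFTY2* and *SMAD3* were chosen for naming after their values had been seen.

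Of the FGF ligands of the streak, *FGF8* fell and *FGF17* was called higher with the block. *FGF8* had 9.82, 3.49, 4.05 and 4.69 CPM on MEF and 1.99, 1.24, 0.957 and 1.46 CPM in feeder-free culture, with no overlap. Its log2 fold change was -1.96 (SE 0.40, edgeR adjusted p = 0.0466), a call that was lost when any of 7 libraries was left out (edgeR adjusted p of 0.0821 to 0.130) and kept without line A in feeder-free culture, with log2 fold changes of -2.17 to -1.53 over the 8 settings. In those 7 settings only 0 to 1 genes were called higher and 0 to 5 lower over all genes, so the loss was not particular to *FGF8*. With the block it was called at -1.89 (edgeR adjusted p = 0.00228) and stayed called without any 1 line (edgeR adjusted p of 0.00859 to 0.0109). *FGF17* had 0.336, 0.145, 0.124 and 0.453 CPM on MEF and 2.09, 0.452, 0.352 and 3.19 CPM in feeder-free culture (log2 fold change 2.22, edgeR adjusted p = 0.0120 with the block, and 0.112 without it). *WNT5A*, a non-canonical WNT ligand, was called lower with the block (log2 fold change -0.73, edgeR adjusted p = 0.0264), and its span overlaps LOC104975559.

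Of 12 WNT targets, 10 were tested, 0 were called in either direction without pairing, and with the replicate block 0 were higher and 1 lower, with 2 of 10 above 0 and a median log2 fold change of -0.60. The 1 gene was *SP8*, a zinc finger factor, at -0.67 with the block (edgeR adjusted p = 0.0066) and -0.68 without it (edgeR adjusted p = 0.341). *AXIN2*, the classical feedback target, had a log2 fold change of -0.52 (edgeR adjusted p = 0.593) and was named after its values had been seen.

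Of 14 other streak and axial genes 9 were tested, with 0 called without pairing, 2 called higher with the block and a median of 1.10. *CHRD*, a BMP antagonist of the organizer, had 4.54, 8.30, 10.3 and 6.34 CPM on MEF and 9.02, 21.1, 32.6 and 19.0 CPM in feeder-free culture (log2 fold change 1.40, edgeR adjusted p = 0.00139 with the block, and 0.0710 without it). *CDX4*, a caudal factor of the posterior streak, had 0.0960 to 0.599 CPM on MEF and 0.846 to 1.02 CPM in feeder-free culture, with no overlap (2.02, edgeR adjusted p = 0.0408 with the block, and 0.132 without it). *CDX2*, its relative, had 0 counts in all 8 libraries.

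Further mesoderm genes gave few calls. Of 15 paraxial genes 7 were tested, with 0 called without pairing, 0 higher and 1 lower with the block, and a median of -0.22. The 1 gene was *DLL1*, a Notch ligand of the presomitic mesoderm, at a log2 fold change of -3.55 (edgeR adjusted p = 0.00411 with the block, and 0.0642 without it), while *MSGN1*, a target of TBX6, had 0 counts in every library. Of 15 lateral, cardiac and extraembryonic genes 4 were tested and 1, *KDR*, was called higher in both fits, with a median of 0.05. *KDR*, the VEGF receptor of early vascular and lateral mesoderm, had 1.73, 3.59, 3.67 and 2.49 CPM on MEF and 6.78, 15.6, 11.4 and 7.42 CPM in feeder-free culture. Its unpaired call (edgeR adjusted p = 0.0403) was likewise lost when any of the same 7 libraries was left out, settings in which almost no gene was called. Its call with the block (log2 fold change 1.82, edgeR adjusted p = 0.000956) stayed without any 1 line. Of 10 genes of blood and endothelium 7 were tested, with 0 called without pairing and 1 lower with the block, the haematopoietic factor *GATA2* (log2 fold change -1.45, edgeR adjusted p = 0.0447), and a median of 0.23. Of 9 BMP targets 8 were tested, with a median of 0.38, 0 were called without pairing and 3 were called higher with the block: *ID1* at 0.66, *ID2* at 0.74 and *ID3* at 1.00 (edgeR adjusted p of 0.00779, 0.0278 and 0.0120). These inhibitors of helix-loop-helix factors are direct BMP targets, as *MSX1* and *MSX2* are.

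**Figure D4:**
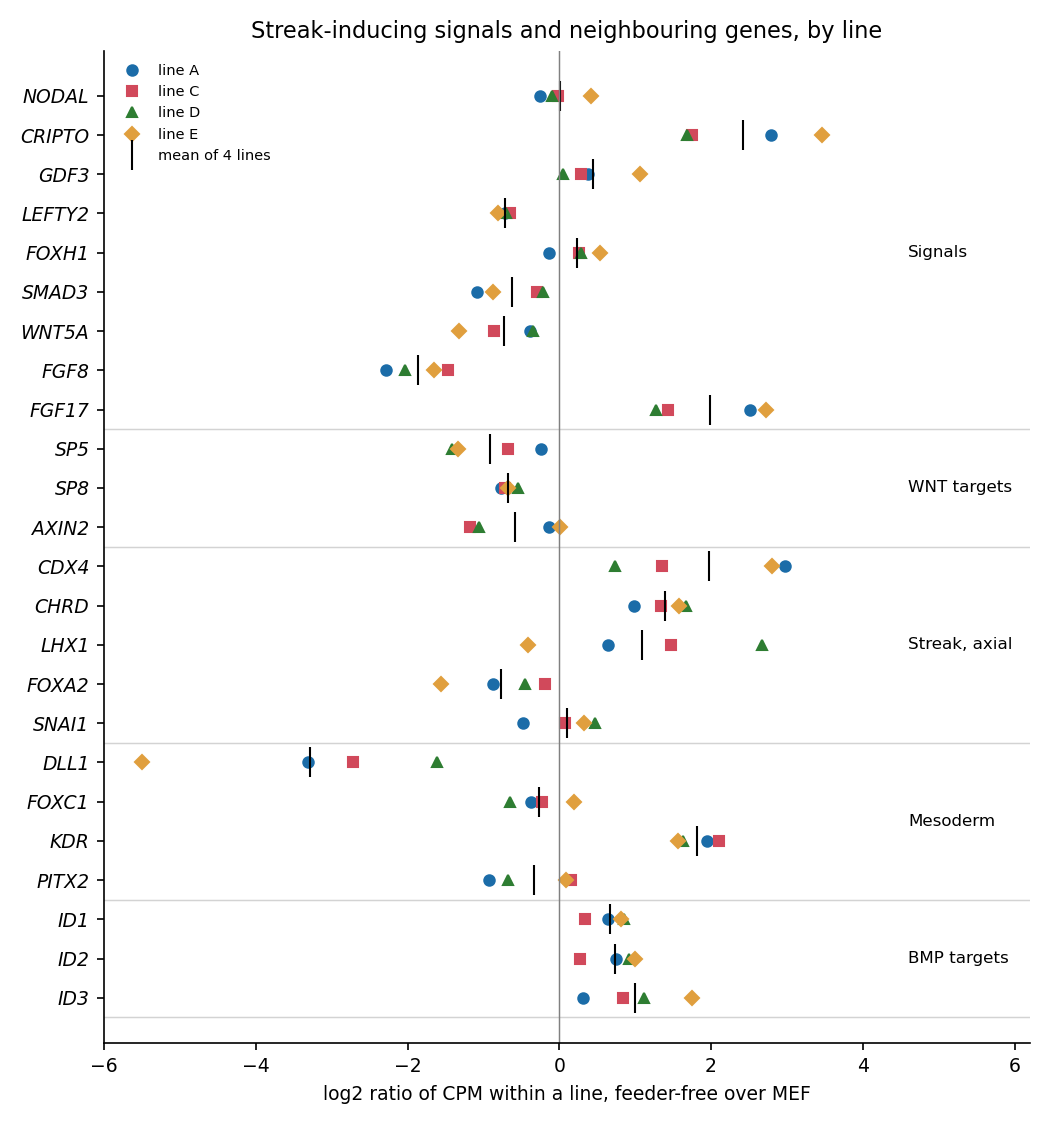
Log2 ratio of CPM within a line, feeder-free over MEF, for streak-inducing signals, WNT targets, other streak and axial genes, other mesoderm genes and BMP targets, a selection made after the values had been seen. Each symbol is a bESC line and the bar is the mean of 4 lines. The *CRIPTO*, *CHRD*, *KDR* and *ID3* ratios are above 0 in all 4 lines, those of *FGF8*, *LEFTY2*, *SP8* and *DLL1* are below 0, and those of *NODAL* lie around 0.

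Markers of other cell types are given beside these values, since the MEF libraries may hold RNA of feeder cells and since some members are also made by trophoblast. The 20 fibroblast markers summed to 934 to 1121 CPM on MEF and 644 to 1758 CPM in feeder-free culture, and 18 were tested, with 0 called without pairing and 2 higher and 2 lower with the block. Without pairing, 10 of these 18 had a log2 fold change above 0, and the median was 0.06. *COL3A1* had 0.181 to 1.57 CPM on MEF and 1.44 to 10.5 CPM in feeder-free culture. *TWIST2*, named after its values had been seen, was at 0 in all 4 feeder-free libraries and at 2 to 32 counts on MEF. *COL1A2* had 0.679 to 4.64 CPM on MEF and 0 to 0.414 CPM in feeder-free culture, and overlaps LOC132345065. The strand used in counting is not given in the sources used here. The 12 trophoblast and amnion markers summed to 728 to 1264 CPM on MEF and 800 to 3115 CPM in feeder-free culture, and of 9 tested 1 was called higher without pairing (*PTGS2*, log2 fold change 2.43, edgeR adjusted p = 0.0373) and 6 with the block. *ELF5*, a defining trophoblast factor, had at most 2 counts in any library, and *CDX2* had 0. Among feeder-free libraries, that of line D had the highest sum of fibroblast, of trophoblast, of endoderm and of neural markers (1758, 3115, 248 and 764 CPM). It also had the highest sum of pluripotency genes and BMP targets (4901 and 346 CPM), and was the highest for the 4 members named above. Few genes made most of the first 4 sums. These were *COL1A1* and *MMP2* (1033 and 434 CPM), *KRT8* and *KRT18* (2041 and 941 CPM), *APOA1* (234 CPM), and *SOX11* and *NES* (389 and 333 CPM). A high sum therefore does not show that the other genes of its list were high. The 10 endoderm markers had 6 tested, with 1 higher and 0 lower, and the 10 neural markers had 6 tested, with 0 higher and 1 lower, both without pairing, and all 10 pluripotency genes were tested with 0 called. With the block, *COL3A1* (log2 fold change 2.53), *POSTN* (2.77), *KRT7* (1.46), *SFN* (1.39), *TEAD4* (1.31), *APOA1* (1.56) and *LHX2* (1.69) were among the genes called higher, and *PRRX1* (-4.15), *COL1A2* (-4.35), *PRDM1* (-1.15), *SOX11* (-0.66), *ZIC1* (-2.74) and the pluripotency factor *OTX2* (-0.66) were called lower. Of these, *APOA1* and *SOX11* were also called without pairing, at 1.53 and -0.66. *TEAD4*, *APOA1*, *LHX2* and *ZIC1* overlap other annotated genes. *POSTN* rested on the feeder-free library of line D, without which its unpaired log2 fold change of 2.26 was 0.71 (edgeR adjusted p = 0.877). The part of these other cell types in the members' values was not tested.

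Genes whose levels varied most like each tested member were found from log2 CPM after subtraction of each condition's mean, over the 8 libraries and 10737 candidates with a mean of at least 5 CPM. They are a description, since the points share depth and line. *EOMES* was followed by *SIRT6* (r = 0.990), *THSD1* (r = 0.988) and *ABTB1* (r = 0.986). *GSC* was followed by *SMS* (r = 0.994), *HDAC2* (r = 0.992) and *CCNH* (r = 0.988), *TBX6* by *YIF1B* (r = 0.992), *PSKH1* and *SLC26A6*, *MSX2* by *JUN* (r = 0.993), *RNF19B* and *RNF19A*, and *MIXL1* by *MTPN* (r = 0.980), *MINDY2* and *EIF2AK3*. *GSC*, *TBX6*, *MSX2* and *MIXL1* lay under 5 CPM in every library and so were not candidates. Only *EOMES* could be found near another member, and it was not among the 3 nearest of any. The search therefore cannot show whether the other members vary together. Between members, *EOMES* and *GSC* ran opposite to each other (r = -0.873), the correlation largest in size of all pairs of tested members. The other pairs had r of -0.469 to 0.581. On MEF the lines stood in opposite order, D, C, A, E from highest to lowest in *EOMES* and E, A, C, D in *GSC*, and in feeder-free culture line D was highest in *EOMES* and lowest in *GSC*, while *MIXL1* and *MSX2* ran together at r = 0.581.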

How the data were processed

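Raw counts per gene of 8 libraries were analysed, 4 bESC lines on MEF and the same lines in feeder-free culture. The authors deposited counts without normalization. They trimmed reads with Trimmomatic, mapped them with STAR to the bovine build ARS-UCD2.0, dropped optical duplicates and poorly mapped reads, and counted with featureCounts (Subread 1.6.2 in the submitters' processing notes). The methods also describe taking out, from the MEF libraries, reads seen in pure MEF. Whether reads or pairs were counted, and on which strand, is not given in the sources used here. The table listed 32640 genes, 3 of them without values, and 15744 passed filterByExpr. The depth was 44268717 to 102351560 counts per library, and limits set from 3 counts cover counting error only, whereas edgeR's intervals include the spread between lines.

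Conditions were compared with edgeR 4.0.16 under R 4.3.3 (TMM, glmQLFit, glmQLFTest), with condition as the only term in the main fit. P-values were adjusted over all genes tested by the Benjamini-Hochberg method, and genes were called when the adjusted p was under 0.05 and the change at least 1.5-fold. Log2 CPM used a prior count of 2. Differences between lines were tested by the 3 line coefficients in a fit of line and condition. Genes below the filter were compared by an exact permutation test over 70 splits. Same-line libraries deviated together from their condition means (r of 0.582, 0.557, 0.664 and 0.421 for A, C, D and E, and -0.523 to 0.249 between lines), and since they are the same cell lines, a fit with line as replicate block was made beside the unpaired one. No pair of libraries within a condition was a duplicate (smallest chi-square per degree of freedom 43.7 over 12 pairs). RefSeq's annotation matched 30268 genes and gave the coordinates. Levels per gene length were not computed, since no exon lengths were used here.

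All 10 members were named. Of each other list, genes called in either fit were named, at most 4 by fold change, except where stated. Of the most abundant genes of the marker lists, which the rule also names, those not called are printed only for *POU5F1* and where summed levels are described. For each tested member the 3 most similar genes were named. Members and lists were chosen with earlier results of these data known. The tables were recomputed with RLE size factors, without scaling, with other filters, with DESeq2 1.42.0, with the replicate block, without the fold threshold, with another prior count (0.5) and without each library. Chosen after seeing the data were counts halved and rounded up, and the block with no filter or without each line. The fits were tested on simulated counts.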

Additional observations from a re-analysis of the deposited data

Results flagged for a closer look

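In groups of 4 libraries, 46 were examined for a library far from the other 3, and 5 held one, where about 2.3 are given by chance. The log2 CPM of *MESP1* in feeder-free line A was -3.72, where the other 3 had -4.80, from 2 counts against 0. The log2 CPM of *HAND1* in line C on MEF was -3.79, against -4.80 in the other MEF libraries, also from 2 counts against 0. In both of these groups the other 3 libraries were tied at 0 counts, so any count stands apart. The 5 found are therefore not read as an excess over 2.3. The total count of the feeder-free library of line D was 102351560, while lines A, C and E had 49671478 to 51320214. The summed level of endoderm markers in line E on MEF was 129 CPM, against 65.4 to 74.3 CPM, and *APOA1* alone had 97.5 CPM there. The summed level of neural markers in feeder-free line D was 764 CPM, against 518 to 560 CPM, and *NES* alone had 333 CPM there. The cause of these values was not tested.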

How the results depend on the processing

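The count of members called in feeder-free against MEF was 0 in the fit on condition alone and 0 under RLE size factors, no scaling, both other filters, DESeq2, no fold threshold, counts halved and without any single library. Leaving out any library but that of line A in feeder-free culture left almost no gene called over all genes. A count of 0 members was therefore almost fixed in those settings, and they do not test it. The count of members was 1 with the replicate block, 2 with the block and no filter, and, with the block, 0 without line A or C, 1 without line D and 1 without line E. Between lines 0 members were called, 2 with no filter, and 0 to 1 without any single library. No result changed sign past its threshold. Over all genes, 114 were called higher and 158 lower. No filter gave 73 and 97, no scaling 91 lower, at least 10 counts in every library 199 higher, DESeq2 685 and 513, the replicate block 869 and 713, and the block with no filter 1192 and 796. With the block, 918 and 733 were called without line A, 561 and 496 without C, 376 and 366 without D, and 662 and 497 without E. Leaving out the library of line A in feeder-free culture gave 259 higher and 231 lower. Leaving out any other single library gave 0 to 1 higher and 0 to 5 lower. Filters change the number of genes tested and leaving out a library the number of samples, and otherwise the cause was not tested. The call of *FGF8* was also lost with no scaling (adjusted p = 0.0509 from edgeR) and no filter (0.0517). The depth limits *TBXT*, *MESP1*, *HAND1* and *FOXF1* to at most 12 counts per library, and levels per gene length could not be computed.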

Other observations

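A few further mesoderm genes stood far higher in the feeder-free library of line D than in any other library, and were picked out after their values had been seen. Of 40 mesoderm genes with at least 50 counts in all, 3 were at least 5 times higher there than in the next library, *TBX3* (2.95 against 0.339 CPM), a T-box factor of lateral and cardiac mesoderm, *MEOX1* (1.99 against 0.281 CPM), a homeobox factor of somites, and *MYL7* (3.12 against 0.615 CPM), an atrial myosin light chain. Of all 16897 genes with that many counts, 22 (0.130%) were as far above in that library, and 25 (0.148%) in the library of line E on MEF. None of the 40 was as far above in any of the other 7 libraries. The feeder-free library of line D was also the deepest (102351560 counts, against 44268717 to 54296425), so a gene high in it alone reaches 50 counts at a lower CPM. *GREM1*, a BMP antagonist, also had 2.05 CPM there against at most 0.339 CPM elsewhere. *MSX1* had 2.13 CPM in the same library, against at most 0.452 CPM in the other 7. None of these passed the filter on low counts. With the replicate block and no filter, a setting chosen after seeing the data in which 8.55% of genes were called, *TBX3* (log2 fold change 5.53, edgeR adjusted p = 1.92e-05), *MYL7* (4.54, edgeR adjusted p = 6.02e-05) and *MEOX1* (2.88, edgeR adjusted p = 0.0258) were called higher in feeder-free culture, and *GREM1* was not (2.23, edgeR adjusted p = 0.0552). The genes were picked by their level in the feeder-free library of line D, which this fit includes, so the direction was set by the choice. The adjusted p-values are therefore no separate support for a difference between conditions. *TBX3* and *MEOX1* reached 50 counts only through the feeder-free library of line D. The limit of 50 counts therefore favoured genes high in that library, and the contrast with the other 7 libraries is given as a description. *TBX3* and *MYL7* were higher in 4 of 4 lines, and *MEOX1* and *GREM1* in 3. With no filter and no pairing none of the 4 was called (edgeR adjusted p of 0.0834 to 0.217).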
